A study of Homo sapiens with 8 samples.

Results

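A2058 is an established human melanoma cell line, and its transcriptome was compared between cells that carried ATF3 on a retrovirus and cells of the neomycin control. The comparison held every gene with at least 1 RPKM (reads per kilobase of transcript, scaled to the size of the library) in either of the 2 A2058 columns. This gave 11883 of the 18478 genes in the table. Both cultures were A2058 cells grown in DMEM with 10% fetal bovine serum, and total RNA was sequenced from each. The labels give 1 library with ATF3 and 1 library of the control, so no difference has a replicate check and no p-value is given. The labels do not name the retroviral promoter, the form of the ATF3 copy, the number of clones or the time after transduction. The same study put ATF3 into C8161, another human melanoma line, with 3 libraries per arm. For this line its authors give 1 value per gene and arm, in columns marked ALL. Whether these are means or come from pooled reads, and whether they cover all 3 libraries, is not stated. These values, called combined below, have no SD or n here.

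ATF3 is a transcription factor of the basic leucine zipper family, which includes the CREB, ATF, FOS, JUN, MAF and C/EBP proteins. It is kept low in unstressed cells and is induced by amino acid shortage, endoplasmic reticulum stress, DNA damage and inflammatory signals. As a dimer it binds cyclic AMP response elements (CRE) and the related AP-1 site, and it is best known as a repressor that limits inflammatory genes such as cytokines, while dimers with JUN proteins can activate. In melanoma both growth-restraining and stress-adaptive roles have been described for it.

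ATF3 was the gene by which the labels could be checked. The library with ATF3 had 4.71 RPKM and the control had 1.22 RPKM. This is a 3.86-fold difference in RPKM, or 1.36 as a difference of log2(RPKM + 1). All ratios below are this difference, ATF3 minus control. The gene (Entrez 467, chromosome 1, 212565407 to 212620777 on GRCh38.p14) is not shared in sequence with another gene. At the read depth estimated from the low values and the length of its longest transcript, these levels correspond to about 183 and 47.3 reads. The SD from counting alone was then 0.15 on the ratio. The central 95% of the 500 genes nearest in level ran from -0.36 to 0.30, a range called the level band below, and ATF3 lay above it. Its level in A2058 was nevertheless low. In the library with ATF3, 8884 of the 11883 genes (74.8%) had a higher value, against 11466 genes (96.5%) in the control. In C8161 the combined columns gave 62.57 and 4.76 RPKM, a ratio of 3.46. The C8161 control value was thus about the A2058 value with ATF3. With 1 value per gene, the viral copy and the endogenous gene cannot be told apart.

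Both columns carried the melanocytic program. All 10 markers of that lineage were at or above 1 RPKM in at least 1 column, led by PMEL, a pigment granule protein, at 852.93 RPKM with ATF3 and 805.51 in the control. SOX10, a neural crest and melanocyte transcription factor, had 252.79 and 253.85 RPKM, and MITF, the lineage's main regulator, had 51.86 and 54.02. The 10 markers summed to 1567.56 and 1530.53 RPKM. Of 8 markers of the dedifferentiated melanoma state, 5 reached 1 RPKM, and SOX9, EGFR and WNT5A stayed at 0.08 RPKM or below in both columns. Markers of other cells were mostly low: none of 6 endothelial markers reached 1 RPKM, 3 of 7 fibroblast markers did (LUM, THY1 and COL1A1, with 21.54 and 19.37 RPKM for the sum of all 7), 2 of 5 keratinocyte markers did (KRT10 and SFN, sums of 33.39 and 31.80, with KRT14 at 0), and 3 of 5 leukocyte markers did (CD68, LYZ and FCER1G, sums of 41.14 and 39.30, with PTPRC, the common leukocyte antigen, at 0.37 and 0.43). The columns summed to 476236 and 470633 RPKM, and the estimated depth was about 18400000 reads in each. This figure is approximate because the transcript lengths used by the authors are unknown. Other depths also matched the steps that whole reads make in low values nearly as well. The match scored 0.36 with ATF3 and 0.43 in the control, against 0.32 and 0.37 at the best depth elsewhere.

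The other members of the leucine zipper family, ATF3's possible dimer partners and competitors, had nearly the same levels in both libraries. Over the 27 members compared besides ATF3, the median ratio was 0.06, against 0.004 over all genes, and 16 were above 0. For scale, 51.3% of all 11883 genes were above 0 and 48.1% below. Only BATF, a partner of JUN proteins in lymphoid cells, was past 1.2-fold higher, at 1.78 RPKM with ATF3 and 1.12 in the control (0.39). Of all genes 2.02% were past it, but 8.33% were at a mean of 0.5 to 2 RPKM, where BATF stood. FOS, an AP-1 subunit, had 9.40 and 7.83 RPKM (0.24), and JUNB had 55.27 and 49.97 RPKM (0.14). FOS was the only one of the 27 above its level band, which ran from -0.20 to 0.19. Of all genes, 2.55% lay above theirs. JDP2, a repressor closely related to ATF3, had 3.91 and 4.79 RPKM (-0.24). ATF4, which drives the integrated stress response and induces ATF3, was at 184.11 and 178.93 RPKM (0.04). Of the 27, 22 were more abundant than ATF3 in the library with ATF3, and 26 were in the control. ATF3 made up 0.646% of the summed RPKM of the family in the first and 0.174% in the second.

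The palindromic CRE is the site that ATF3 is best known to bind, and a search of RefSeq promoter windows (GRCh38.p14, from 250 bases before to 50 bases after each start site) shows such letters in genes that were lower and genes that were higher with ATF3 in A2058. The 7 windows below run 5′ to 3′ on the gene's strand, with the letters TGACGTCA in capitals. They come from the 3 genes with the lowest and the 4 with the highest ratio among genes with at least 5 RPKM whose site lay wholly before the start site.
PDZD8: gagcacgcctcTGACGTCAcgcgctgctcg
RBBP6: cgtgcgctttgTGACGTCAgccgccccgcc
UMPS: gacttcgcgggTGACGTCAtcggggcgccg
DUSP1: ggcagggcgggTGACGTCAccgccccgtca
MLF1: cctcgtcctggTGACGTCAcagagcaatgt
GABARAPL1: ggctcgcggggTGACGTCAcagcccgacgc
WASHC3: caccccgaaatTGACGTCAcaatctggact

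The flanks of these sites differ, and the same 8 letters stand in promoters of genes with ratios on both sides of 0. PDZD8, RBBP6, UMPS and GABARAPL1 lay just or clearly outside their level bands, while WASHC3, MLF1 and DUSP1 lay inside theirs. Since the 7 were picked for their ratio, their signs and their places outside the bands are no support. Of all genes compared, 2.55% lay above their level band and 2.6% below it. The coordinates below are those of the whole printed stretch of 30 bases, and distances are from the last of the 8 letters to the start site. PDZD8, a protein of endoplasmic reticulum contact sites, had 5.64 RPKM with ATF3 and 7.66 in the control (-0.38, below its level band of -0.24 to 0.26). Its stretch is chr10:117375498-117375527 on the minus strand, and the letters end 69 bases before the start. RBBP6, a ubiquitin ligase that binds the retinoblastoma protein, had 10.16 and 12.10 RPKM (-0.23), with its stretch at chr16:24539461-24539490 on the plus strand. UMPS, which makes uridine monophosphate, had 8.29 and 9.76 RPKM (-0.21), with its stretch at chr3:124730394-124730423 on the plus strand. On the higher side, WASHC3, a subunit of the WASH complex of endosomes, had 13.43 and 11.67 RPKM (0.19), with its stretch at chr12:102062169-102062198 on the minus strand. GABARAPL1, an autophagosome protein, had 17.58 and 15.40 RPKM (0.18), with its stretch at chr12:10212836-10212865 on the plus strand and its letters ending 23 bases before the start. MLF1 had 7.09 and 6.17 RPKM (0.17), with its stretch at chr3:158571100-158571129 on the plus strand. DUSP1, a phosphatase of MAP kinases and an immediate early gene, had 10.53 and 9.23 RPKM (0.17), with its stretch at chr5:172771302-172771331 on the minus strand.

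Over all genes, holding a CRE made little difference to the ratio. Windows were available for 9745 genes (82.0%), and 378 of them (3.88%) held TGACGTCA on either strand in any of their windows. Of all 35116 single windows, 1.85% held it. The 2 shares are not directly comparable, since the windows belong to 27305 genes and a gene can have several. Their median ratio was 0.010 and that of the genes without it was 0.004, with an interquartile range of -0.05 to 0.07 among the former. Of 191 genes with a window that were past 1.2-fold higher, 6 (3.14%) held the CRE, and of 128 that were past it lower, 3 (2.34%) did. The AP-1 letters TGANTCA, searched on both strands, were in 672 genes (6.90%, and 7.71% of all windows), with a median of 0.009. They were in 21 of the 191 higher genes (11%) and in 9 of the 128 lower genes (7.03%). A match is a description of letters and not a bound site, and the share of letters among higher genes was not tested.

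The differences between the columns were small over nearly all genes. The ratios had a median of 0.004, an SD of 0.13 and a central 95% from -0.23 to 0.24. Past 1.2-fold (a ratio of 0.26 on the log2(RPKM + 1) scale) there were 240 genes higher with ATF3 (2.02% of those compared) and 179 lower (1.51%). Which direction had more genes depended on scaling: with the median of genes at 20 RPKM or more set to 0, 208 were higher and 219 lower. Past 1.5-fold there were 13 higher (0.109%) and 24 lower (0.202%). Past 2-fold there were 6 higher (0.0505%) and 8 lower (0.0673%). The spread narrowed with level: among genes without shared sequence the SD was 0.18 at a mean of 0.5 to 2 RPKM, 0.10 at 5 to 20 RPKM and 0.05 at 100 RPKM or more. Counting alone would give SDs of 0.14, 0.07 and 0.03 at the estimated depth. These take the longest transcript as the length of each gene, so they are too low where reads came from shorter ones. What part this plays in the gap to the observed SDs was not tested. Of all genes, 303 (2.55%) lay above their level band and 309 (2.6%) below it, which the band's construction sets. No gene with a mean of at least 100 RPKM passed 1.2-fold in either direction.

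**Figure D1:**
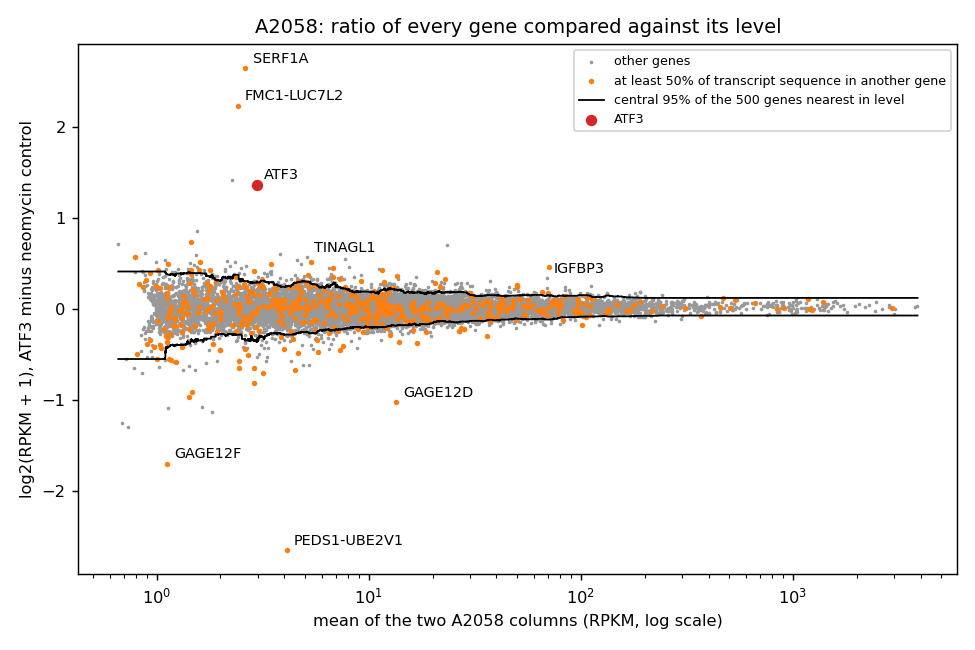
Ratio of each A2058 gene (log2(RPKM + 1), ATF3 minus control) against its mean level in RPKM on a log axis, 1 point per gene except Y-linked genes, with orange for genes that share at least 50% of their transcript sequence with another gene and black lines for the level band. ATF3 is the red point at 1.36, and the other labelled points beyond 1 in size are orange.

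Of the genes past 2-fold, 4 of the 6 higher and 3 of the 8 lower shared at least 50% of their transcript sequence with another gene. A further 1 higher and 4 lower had no transcript and could not be measured. The share of a gene's sequence was measured as the share of 50-base stretches of its longest transcript that also occur in transcripts of another gene, and 499 of 11757 genes with a transcript (4.24%) were at 50% or more. These had an SD of 0.31 in their ratios, against 0.11 for the rest. Of the 6 genes past 2-fold higher, ATF3 was the only one with a transcript and under 50% shared, 2 were Y-linked and 1 had no symbol. Of the 8 lower, only the pseudogene UBE2Q2P16, at 0.37 and 1.90 RPKM with 41.5% shared, was under that share. LOC100996747 (listed at 0 with ATF3 and 1.38 in the control), TMEM183BP (0.77 and 2.87) and LOC102723360 (0.69 and 2.57) had no transcript for the measure.

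The sums of copies and read-through genes with their partners differed less between the libraries than single members did, an alternative chosen after the data were seen. Where the other members are far more abundant, the sum says little about the member past 2-fold. SERF1A, a small protein that modifies amyloid formation, was listed at 0 in the control and had 5.24 RPKM with ATF3, while its copy SERF1B on the same chromosome had 25.15 and 29.28. Their sum was 30.39 and 29.28 RPKM (0.05). FMC1-LUC7L2, a read-through of 2 neighbouring genes, had 4.62 and 0.20 RPKM, the mitochondrial assembly factor FMC1 had 7.41 and 10.28, and the splicing factor LUC7L2 had 51.99 and 55.65. Their sum was 64.02 and 66.13 RPKM (-0.05). PEDS1-UBE2V1 had 0.41 and 7.81 RPKM (-2.64), and with PEDS1, a desaturase of plasmalogen synthesis, and UBE2V1, a ubiquitin-conjugating variant, the sum was 108.00 and 108.91 (-0.01). Over the 40 read-through genes whose component genes were also listed, 17 passed 1.2-fold alone and 0 did so once summed with their components, and the SD of the ratios was 0.62 alone and 0.06 summed. Many of these sums are nearly all component genes, as for URGCP-MRPS24, with 2.03 and 3.74 RPKM in sums of 186.64 and 184.67, so this outcome was largely fixed by their levels and does not show that reads moved between the genes. The GAGE genes are cancer-testis antigens of the X chromosome. GAGE12D had 8.51 and 18.34 RPKM (-1.02) and GAGE12F was listed at 0 with ATF3 and had 2.24 in the control, while GAGE12B had 1220.97 and 1128.35, and the 9 listed GAGE genes summed to 2976.96 and 2809.13 RPKM (0.08), a sum in which GAGE12D and GAGE12F are a small part. LIMS4 (3.25 and 5.78 RPKM) differed from the other sets: with LIMS3 its sum of 3.48 and 5.78 still gave -0.60.

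**Figure D2:**
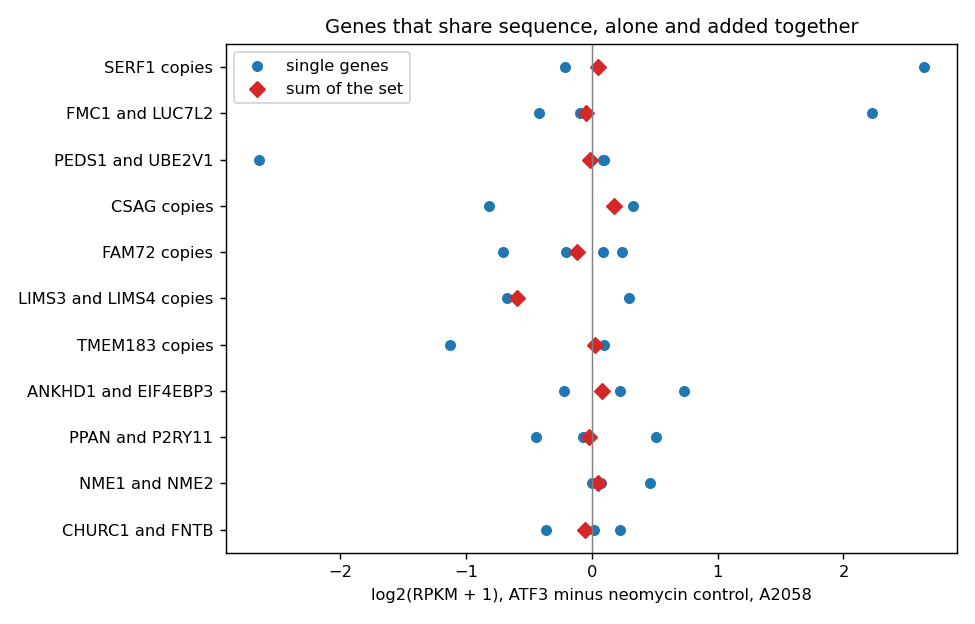
Log2(RPKM + 1) ratio in A2058, ATF3 minus control, for 11 sets of genes that share sequence, with blue points for single genes and red diamonds for the sum of each set. Single genes reach 2.64 and -2.64, and all sums except that of LIMS3 and LIMS4 lie between -0.12 and 0.18.

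Among genes with a mean of at least 5 RPKM and under 50% shared sequence, the 15 highest ratios ran from 0.33 to 0.57. TINAGL1, a secreted glycoprotein of basement membranes, led with 6.27 RPKM against 3.91 (0.57). MAP1LC3B2, a near copy of the gene for the autophagy protein LC3, followed with 9.37 and 6.10 (0.55), and PRRX2, a mesenchymal homeobox factor, with 9.55 and 6.68 (0.46). By the 50-base measure MAP1LC3B2 had 0% shared sequence, and whether its reads are split with the other gene was not tested. Others were BCL3, a nuclear partner of NF-kB subunits (7.52 and 5.67, 0.35), IL4R, the interleukin 4 receptor (8.09 and 6.17, 0.34), and CASP9, the initiator caspase of the mitochondrial death pathway (6.48 and 4.94, 0.33). IGFBP3, a secreted binder of insulin-like growth factors, was the most abundant of the 15, with 76.95 and 60.81 RPKM (0.33, against a level band of -0.12 to 0.15 and an SD from counting of 0.04). The rest were DYNLT2B, LHPP, BLOC1S2, FITM2, KLHL23, TENT2, INAFM1 and RBM4B. DYNLT2B had 47.4% shared sequence. The read-through PHOSPHO2-KLHL23 had 0.80 and 1.86 RPKM, and its sum with both component genes was 7.80 and 7.20 (0.10). Since the 15 were picked for their ratio, all lying above their band is no support.

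The 15 lowest ratios ran from -0.30 to -0.61. DND1, an RNA-binding protein of germ cells, was lowest with 3.91 RPKM against 6.51 (-0.61). SVBP, which works with vasohibins on tubulin, had 5.36 and 7.65 (-0.44), and NUDT16, a nucleotide hydrolase, had 4.49 and 6.43 (-0.44). FMC1 (-0.42) was also in this group, and its sum with the read-through transcript is given above. LRMDA, a gene tied to melanocyte differentiation, had 4.46 and 6.19 (-0.40). PRKAR2A, a regulatory subunit of the cyclic AMP-dependent kinase, was the most abundant of the 15 at 17.55 and 21.80 RPKM (-0.30). PDZD8, ZC3H8, SDCCAG8, KLHL2, ZNF251, ATE1, ZBED3, C2orf69 and SLC36A4 made up the rest. These genes were at means of 5.21 to 19.7 RPKM.

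In absolute RPKM, the largest differences were in very abundant genes and were a few percent of their level. The largest excess with ATF3 was in RPS18, a ribosomal protein, at 2538.67 against 2400.78 RPKM (5.74% higher), followed by UBB, a ubiquitin gene, at 1343.93 and 1241.64 (8.24% higher), and GAPDH at 3911.37 and 3811.31. The largest deficit was in MTRNR2L2, a nuclear pseudogene resembling mitochondrial ribosomal RNA, at 2927.74 and 3046.36 RPKM (3.89% lower). Of its transcript sequence, 35% occurs in another gene, and whether its reads are its own was not tested. The next deficit was in HSPA8, a chaperone, at 1782.88 and 1824.56. THBS2, a matrix thrombospondin, had 284.32 and 307.72 RPKM (-0.11) and was the only one of these 16 genes outside its level band. The 10 most abundant genes, from GAPDH, FTH1 and ACTB down to RPLP1, had ratios between -0.06 and 0.08.

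Gene lists described by role gave medians close to 0, and 31 of them held at least 5 compared genes. Glycolysis and hypoxia genes had the largest share of members above 0 of these 31 lists, 32 of 35 (91.4%), with a median of 0.07. ENO2, a glycolytic enzyme, had 104.64 and 94.19 RPKM (0.15), NDRG1, a hypoxia-induced differentiation gene, had 113.22 and 100.36 (0.17), and ANKRD37 had 27.41 and 23.66 (0.20). P4HA1 and P4HA2, which hydroxylate collagen prolines, had 54.11 and 48.76, and 53.74 and 48.50 RPKM (0.15 each). EGLN3, an oxygen sensor, was the only list member past 1.2-fold, at 2.19 and 1.45 RPKM (0.38). Of all genes 2.02% were past it higher, but 8.33% were at a mean of 0.5 to 2 RPKM, where EGLN3 stood. HIF1A, HK1 and HK2 were the 3 below 0. The range over members is narrow, with an interquartile range of 0.04 to 0.10. Of the 35 members, 4 lay above their level bands, as did 2.55% of all genes.

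Inflammatory and interferon lists had medians of 0.07 and 0.09 and a wide spread among members. Of 23 NF-kB and cytokine genes, 15 were above 0, the median was 0.07, and 4 were past 1.2-fold higher and none lower. Of all genes 2.02% were past it higher, but 3.60% were at a mean of 2 to 5 RPKM, where 3 of these 4 stood. The 4 were CCL5, a T-cell chemokine (4.10 and 2.82 RPKM, 0.42), BCL3, CXCL8, a neutrophil chemokine (3.56 and 2.73, 0.29), and IL11, a cytokine of the IL6 family (4.44 and 3.51, 0.27). IL6, often named as a gene that ATF3 represses, was at 0.94 and 1.28 RPKM (-0.23), within its level band. Of 23 type I interferon genes, 17 were above 0, with a median of 0.09. IFIT3, an antiviral protein, was past 1.2-fold at 6.17 and 4.71 RPKM (0.33), and BST2, which tethers virions, had 5.64 and 4.71 (0.22). At a mean of 5 to 20 RPKM, where IFIT3 stood, 1.25% of all genes were past 1.2-fold higher. These genes were low, with a median of the mean level of 4.12 RPKM. At a mean of 2 to 5 RPKM, genes without shared sequence had an SD of 0.14 in their ratios. Counting alone would give 0.11 there. Of 15 antigen presentation genes 10 were above 0 (median 0.04), with B2M at 210.87 and 190.67 RPKM (0.14).

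Stress response genes, where ATF3 is itself a member, differed little. Of 34 other genes of the integrated stress response, which ATF4 drives when translation is restrained, 27 were above 0 and the median was 0.04, with none past 1.2-fold. GDF15, a stress cytokine, had 201.55 and 177.67 RPKM (0.18), and STC2 had 7.17 and 6.29 (0.16). SLC7A1, an arginine transporter, had 38.31 and 41.63 RPKM (-0.12). The 31 unfolded protein response genes, which restore folding in the endoplasmic reticulum, had a median of 0.01, with 18 above 0 and none past 1.2-fold. HSPA5, its central chaperone, had 177.16 and 183.20 RPKM (-0.05). In C8161 the median of this list was 0.20, with 28 of 30 genes above 0, against 52.0% of the 10941 genes compared in that line. The list had a median GC content of 45.8% and a median length of 3908 bases. Over all C8161 genes the ratio had a Spearman's rho of -0.42 with GC content and 0.20 with length. What part these trends play was not tested. Other lists also had C8161 medians away from 0, such as 0.23 for type I interferon genes and -0.11 for cytosolic ribosomal proteins. The difference between the lines was not tested, since A2058 has 1 library per arm and C8161 has only combined values.

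The 27 genes reported elsewhere as ATF3 targets had a median of 0.004, the same as that of all genes, and 14 of them were above 0. CDKN1A, an inhibitor of cyclin-dependent kinases, had 17.98 RPKM with ATF3 and 14.83 in the control (0.26, past its level band). MMP1, a collagenase, had 186.43 and 171.36 RPKM (0.12). FN1, fibronectin, had 180.93 and 192.19 (-0.09, below its level band), TWIST1 had 14.91 and 16.07 (-0.10), and SNAI2 had 20.95 and 22.57 (-0.10). CCND1, the cyclin of early G1, had 23.61 and 22.69 (0.05).

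Immediate early genes, which are induced within minutes of a stimulus, had a median of 0.06 over 24 genes including ATF3, with 17 above 0. ZFP36, which destabilizes cytokine messages, had 6.02 and 4.63 RPKM (0.32), and MYC had 38.63 and 42.48 (-0.13). The pigment list of 24 genes had a median of 0.02 with 14 above 0. MLANA, a melanoma antigen, had 20.66 and 17.84 RPKM (0.20), and DCT, a pigment enzyme, had 292.47 and 308.33 (-0.08). Among 21 genes of the dedifferentiated state, SOX2, a stem cell factor, had 5.15 and 6.42 RPKM (-0.27), and AXL, a receptor kinase, had 12.63 and 11.41 (0.14).

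Cell cycle, death and housekeeping lists stood near 0. The 34 S phase genes had a median of 0.02 with 26 above 0, and CCNE1, cyclin E, had 22.60 and 20.30 RPKM (0.15). The 35 genes of G2 and M had a median of 0.01 with 20 above 0. CENPF, a kinetochore protein, had 16.54 and 19.42 RPKM (-0.22), and MKI67, the proliferation marker, had 27.06 and 29.50 (-0.12). XPC, a DNA damage sensor that is in neither of these cell cycle lists, had 8.68 and 10.65 RPKM (-0.27). At a mean of 5 to 20 RPKM, 0.769% of all genes were past 1.2-fold lower. The 26 apoptosis regulators had a median of 0.01 with 13 above 0. Replication-dependent histone genes varied widely at low level, with 2 of 18 past 1.2-fold higher and 4 lower, a median of 0.05 and 11 above 0. Their median level was 3.32 RPKM, and at a mean of 2 to 5 RPKM 3.60% of all genes were past 1.2-fold higher and 3.30% lower, while at 0.5 to 2 RPKM 8.33% and 6.54% were. Of the 18, 12 had a transcript with under 50% shared sequence. On the lower side were H4C3 at 2.46 and 4.13 RPKM (-0.57) and H2BC11 at 3.27 and 5.33 (-0.57), and on the higher side H3C4 at 2.22 and 1.60 (0.31), whose sequence is all shared with another gene, and H2BC18 at 3.07 and 2.37 (0.27).

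Several lists of abundant gene products had medians slightly above 0, and heat shock proteins did not. The 60 cytosolic ribosomal protein genes had a median of 0.03 with 47 above 0 and none past 1.2-fold. With GC and length trends removed the median was 0.02 with 36 above 0, and after quantile normalization it was 0. Of 40 oxidative phosphorylation subunits 28 were above 0 (median 0.03), with COX6C, a cytochrome oxidase subunit, at 120.93 and 101.33 RPKM (0.25). Of 31 proteasome subunits 25 were above 0 (median 0.02), with PSMB3 at 177.15 and 159.00 RPKM (0.16). Quantile normalization brought these medians to 0.008 for oxidative phosphorylation and 0.004 for the proteasome. The 25 heat shock genes, with a median level of 158.6 RPKM, had a median ratio of -0.001 with 12 above 0, and summed to 7523.68 and 7598.51 RPKM. Of 26 lysosome genes 19 were above 0 (median 0.04), with ATP6V1H, a proton pump subunit, at 42.42 and 37.29 RPKM (0.18). HMOX1, haem oxygenase, had 51.98 and 44.42 RPKM (0.22), while GCLM, of glutathione synthesis, had 18.35 and 19.97 (-0.12). Among all 4150 genes with a transcript at a mean of at least 20 RPKM, the median was 0.01.

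Extracellular matrix genes were the only list with a median below -0.05. Of 25 genes 18 were below 0 and 6 above, with a median of -0.07. The laminin chain LAMA1 had 46.51 and 50.21 RPKM (-0.11), the basement membrane collagen COL4A2 had 166.71 and 174.99 (-0.07), the heparan sulfate proteoglycan HSPG2 had 13.49 and 14.56 (-0.10), and AGRN had 43.34 and 46.22 (-0.09). LOXL2, which crosslinks collagen, stood on the other side at 23.68 and 21.38 RPKM (0.14), as did THBS1 at 12.72 and 11.43 (0.14) and COL1A1 at 4.99 and 3.97 (0.27). Among 23 matrix proteases and inhibitors PLAUR, the urokinase receptor, was past 1.2-fold higher at 41.57 and 33.41 RPKM (0.31, SD from counting 0.06). At a mean of 20 to 100 RPKM, where PLAUR stood, 0.388% of all genes were past it higher. The matrix genes had long transcripts, with a median of 6547 bases. Once trends with length and GC content were removed from all ratios, the matrix median was -0.03, and the hypoxia median was 0.07 as before.

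**Figure D3:**
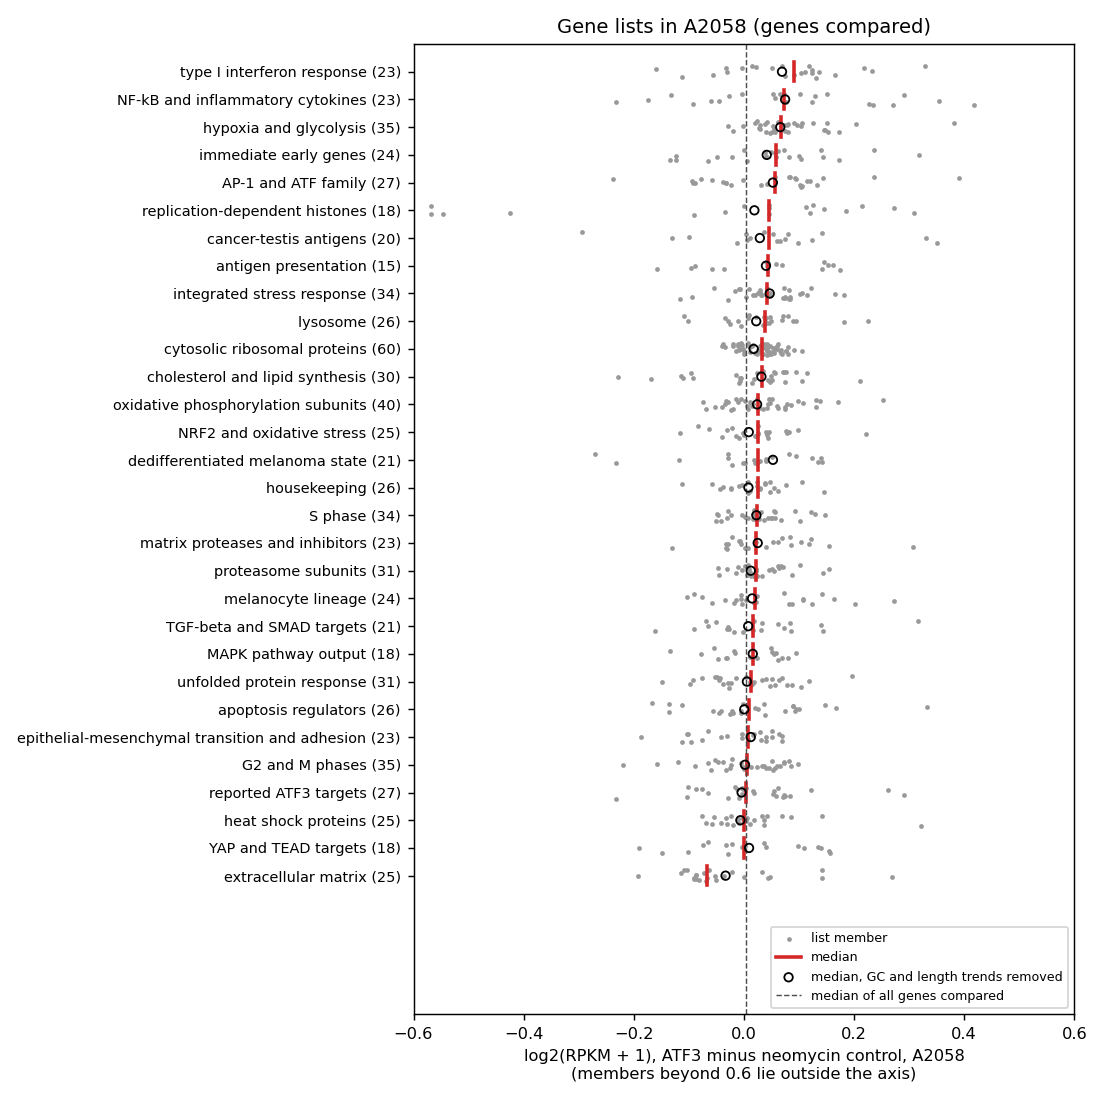
Log2(RPKM + 1) ratios in A2058, ATF3 minus control, for the members of 30 gene lists (grey points, number of genes compared in brackets), with list medians in red and medians after removal of GC and length trends as open circles. Medians run from -0.07 for extracellular matrix to 0.09 for the type I interferon response, and most lists have points on both sides of 0.

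Ratios depended on transcript length. Over 11757 genes, Spearman's rho between the ratio and the length of the longest transcript was -0.23, a description across genes of 1 pair of libraries with no p, and -0.26 over the 4150 genes at 20 RPKM or more. In the decile of genes with the shortest transcripts (177 to 1593 bases) the median was 0.03 and 64.3% were above 0. In the decile with the longest (7591 bases or more) the median was -0.05 and 29.9% were above 0. The 8 lowest genes of that decile at 20 RPKM or more were HCFC1, a chromatin cofactor (28.04 and 32.04 RPKM, -0.19), TBC1D16, SLC44A1, DYNC1H1, the dynein heavy chain (62.66 and 70.49, -0.17), SLC26A2, IGF2R, PLEC and ATP11A. In C8161 the trend ran the other way, with a rho of 0.20, and that line also had a rho of -0.42 with GC content against 0.09 in A2058. What part length plays in the values of single genes and lists was not tested beyond removing the trend.

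**Figure D4:**
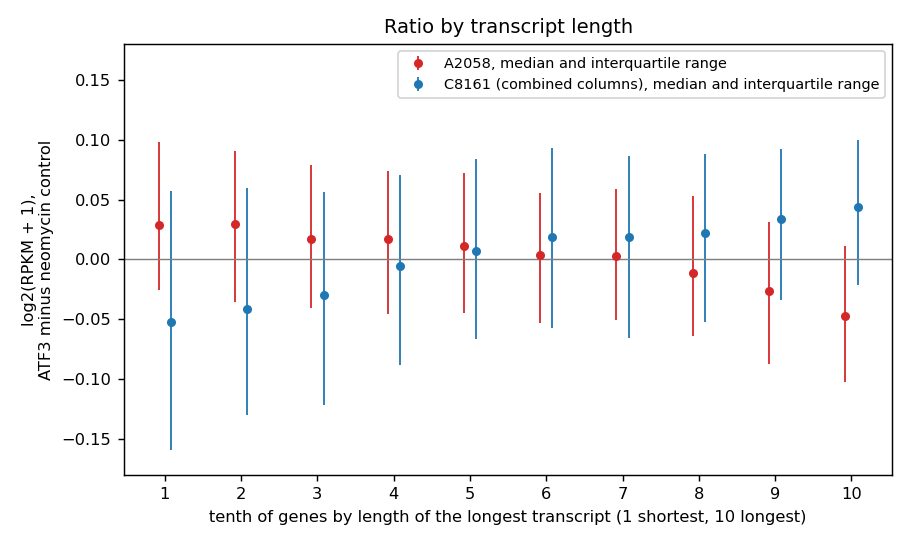
Median and interquartile range of the log2(RPKM + 1) ratio, ATF3 minus control, in deciles of genes ordered by transcript length, for A2058 (red) and the combined C8161 columns (blue). The A2058 median goes from 0.03 in the shortest decile to -0.05 in the longest, and the C8161 median goes from -0.05 to 0.04.

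By chromosome, medians over genes with at least 5 RPKM lay between -0.01 and 0.02. The X chromosome was highest (275 genes, 0.02, 60.4% above 0) and chromosome 4 lowest (259 genes, -0.01, 45.9% above 0). The interquartile range of every chromosome included 0.

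Set beside C8161, the A2058 ratios showed little in common. Over 7264 genes with a mean of at least 5 RPKM in both lines, Spearman's rho was -0.05 and Pearson's r was -0.02, given as a description across genes that share no library between the lines, and 47.5% of genes had the same sign. Of 42 genes past 1.2-fold higher in A2058, 21 were above 0 in C8161, where 50.9% of the 7264 genes were. Of the 42, 4 were past 1.2-fold higher there, as were 121 of the 7264 and 2.19% of all genes compared in C8161. Of 20 genes past 1.2-fold lower in A2058, 8 were below 0 in C8161. Of the 20, 1 was past 1.2-fold lower, as were 218 of the 7264 and 2.71% of all genes compared there. All genes compared in C8161 include genes with a mean below 5 RPKM, so the counts among the 7264 are the matching ones. Among the 8 genes highest in both lines, BCL3 had 8.56 and 6.62 RPKM in C8161 (0.33), IFIT3 had 10.35 and 7.54 (0.41), and RBPMS, an RNA-binding protein, had 17.22 and 13.98 in A2058 (0.28) and 13.49 and 11.16 in C8161 (0.25). HSD17B11, a lipid droplet dehydrogenase, had 29.62 and 24.74 in A2058 (0.25) and 12.58 and 9.41 in C8161 (0.38). LOC102723728, which had no transcript for the shared-sequence measure, had the largest shared excess, with ratios of 0.71 and 0.68. ZFP36, HCFC1R1 and LOC107985355 completed the 8. Lower in both lines were PMVK, a kinase of cholesterol synthesis (29.12 and 34.31 RPKM in A2058, -0.23, and 17.88 and 20.98 in C8161, -0.22), TPGS1, ZNF414, ANAPC2, the shared-sequence genes ACY1, SLX1A and SLX1B, and the read-through CHURC1-FNTB. These genes were chosen for having the same sign, so their agreement is a description.

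**Figure D5:**
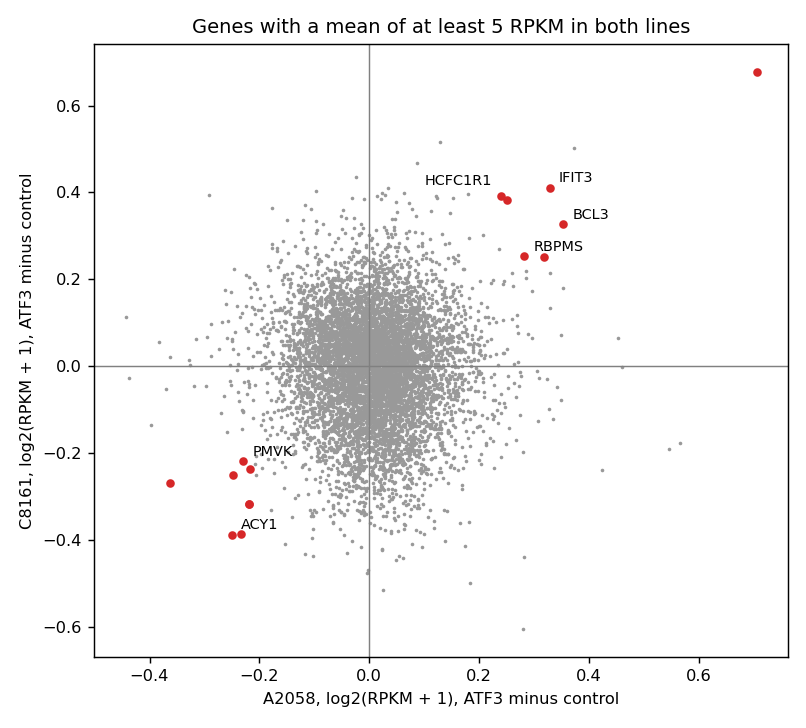
Log2(RPKM + 1) ratio in C8161 (authors' combined columns) against that in A2058 for genes with a mean of at least 5 RPKM in both lines and ratios within 1, with genes named for the same sign in both lines in red. The cloud has no slope (rho of -0.05 over 7264 genes), and the point at the upper right is LOC102723728 at 0.71 and 0.68.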

How the data were processed

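The authors deposited 1 table of RPKM values with 18478 Entrez gene identifiers, 4 value columns and 2 decimals, per the file headers. Per the submitters' processing notes, the tools were Bowtie2 and RSEM and the build was hg38, with no version named. Which annotation, filters and strand setting the authors used is not given in the sources used here. RPKM were used as deposited.

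The ratio was log2(RPKM + 1), ATF3 minus control, over genes that reached 1 RPKM in either A2058 column. With 1 library per arm nothing was tested. Symbols and positions came from RefSeq genes of GRCh38.p14 (18156 identifiers matched), and length, GC content and shared sequence from GENCODE transcripts (17847 genes). Of the genes compared, 126 had no transcript. Read depth was estimated from the whole-read steps of low values in genes of 400 to 1500 bases, and no counts were recovered. Just inside the minimum (1 to 1.1 RPKM) were 121 genes with a median of 0.02, and just outside (0.9 to 1 RPKM) were 164 with a median of 0.

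The genes named were ATF3; all past 2-fold; the 15 highest and 15 lowest ratios (mean of at least 5 RPKM, under 50% shared); the 8 largest RPKM changes per direction; up to 4 members per list; the 8 per direction with the largest ratio of 1 sign in both lines; and the 10 most abundant. Genes without a symbol and Y-linked genes were not named. Some results are not reported here. Other members named in the text, such as those of the marker, length and CRE groups, were chosen after their values were seen. The members and the 35 lists, of which 31 held 5 compared genes, were chosen with earlier results of these data known. Alternatives were an added constant of 0.1, a minimum of 5 RPKM or none, 2 normalizations, removal of a cubic trend in GC content and length, and leaving out genes with shared sequence. Scripts were tested on simulated data. Python 3.11.15, pandas 2.3.3, NumPy 2.4.6, SciPy 1.17.1 and matplotlib 3.10.9 were used.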

Additional observations from a re-analysis of the deposited data

Results flagged for a closer look

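Over genes with a mean of at least 5 RPKM in both lines, 3 genes were past 1.2-fold in opposite directions in A2058 and C8161. KRT81, a hair keratin, had 13.73 RPKM with ATF3 and 11.12 in the control in A2058 (0.28) and 7.26 and 10.21 in C8161 (-0.44). Of its transcript sequence, 44.1% occurs in another gene. NBL1, a secreted antagonist of bone morphogenetic proteins, had 24.97 and 20.39 RPKM in A2058 (0.28) and 10.66 and 16.74 in C8161 (-0.61). Its shared sequence was 14.6%. The read-through MICOS10-NBL1 was more abundant in A2058, at 82.70 and 82.85 RPKM. With both component genes the sum was 126.98 and 121.90 RPKM (0.06). How reads were divided between these genes was not tested. SMN2, the second copy of the spinal muscular atrophy gene, had 32.22 and 39.65 RPKM in A2058 (-0.29) and 32.69 and 24.65 in C8161 (0.39), and 96.7% of its transcript sequence occurs in another gene. The differences between the lines were not tested.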

How the results depend on the processing

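No paired analysis was possible because A2058 has 1 library per arm, and for the same reason no replicate could be left out. With a constant of 0.1 in place of 1 there were 11 genes past 2-fold higher and 25 lower, 459 past 1.2-fold higher and 389 lower, and the ATF3 ratio was 1.87. With a minimum of 5 RPKM these counts were 1, 2, 86 and 44, and ATF3, at 4.71 RPKM, gave no value. With no minimum, 399 genes were past 1.2-fold higher and 319 lower. Without genes of shared sequence, which also leaves out genes with no transcript (19 of the 179 lower, and 4 of the 8 past 2-fold lower), 1 was past 2-fold higher, 1 lower, 184 past 1.2-fold higher and 115 lower. With GC and length trends removed, 4 were past 2-fold lower, since the 4 genes with no transcript drop out; the matrix median was -0.033 and the rank correlation with C8161 was 0.001. Quantile normalization set the ribosomal protein median to 0, since genes of equal rank in both columns then get equal values. Setting the median of genes at 20 RPKM or more to 0 gave 208 genes past 1.2-fold higher and 219 lower, so the direction with more genes changes. Summed with their mostly far more abundant components, 0 of 17 read-through genes passed 1.2-fold, an outcome largely fixed by those levels. A list median counted as moved where it shifted by more than the median absolute deviation of its members. By this rule the matrix median moved when GC and length trends were removed. The ribosomal protein median moved under quantile normalization, and no other list median moved. Of 31 lists, 6 had a median of at least 0.05 in size, and these 6 kept their sign under all 7 alternatives. The ranges were 0.05 to 0.07 for hypoxia, 0.05 to 0.09 for NF-kB, 0.06 to 0.11 for interferon and -0.08 to -0.03 for the matrix. Of the other lists, 7 changed sign under at least 1 alternative. Depth limits genes below 5 RPKM, where counting alone gives SDs of about 0.11 to 0.14 with the longest transcripts as lengths.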
